A study of Homo sapiens with 12 samples.

Results

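Loss of IKZF1 was examined in SEM, an established human B cell precursor acute lymphoblastic leukaemia (BCP-ALL) line that carries a KMT2A-AFF1 fusion, in the absence of drug. The comparison sets 3 untreated libraries of the IKZF1 knockout line (KO) against 3 untreated libraries of wild-type SEM cells (WT). It covers every gene whose FPKM (fragments scaled to gene length and to sequencing depth) was at least 1 in at least 3 of these 6 libraries. That rule kept 12343 of the 58735 genes in the table, 10023 of them protein-coding. Of the 12343 genes, 11060 reached 1 FPKM in all 6 libraries; 97 did so in KO libraries alone and 155 in WT libraries alone, and a gene kept through one group alone had to differ.

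The whole series holds 12 libraries, with 3 in each of 4 groups: KO and WT cells, each without drug or with 1 µM cytarabine (AraC) for 16 hours. Both lines grew in RPMI medium with serum and antibiotics, and neither untreated group received any agent. The labels name 1 KO line and do not say how the gene was disrupted or whether the line is a single clone, so a difference between lines cannot be told apart from the genotype. They number the libraries 1 to 3 but do not state that these came from separate cultures, so each p-value measures the spread between libraries, which may be technical.

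IKZF1 encodes Ikaros, a zinc finger DNA-binding protein that lymphoid progenitors need to enter and complete B cell development. Ikaros recruits the NuRD chromatin-remodelling complex and can repress or activate its targets. In mouse pre-B cells it is known to restrain adhesion and proliferation and to promote differentiation genes. Deletions of IKZF1 are recurrent in BCP-ALL and are associated with relapse.

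The 6 untreated libraries held 16342979 to 16913784 reads assigned to genes, so depth did not differ appreciably between the groups. Mitochondrial transcripts took 2.44% to 2.69% of reads in KO and 2.80% to 2.99% in WT. The leading principal component carried 54.5% of the variance among these libraries and placed all KO libraries on one side and all WT libraries on the other. On component 2, with 13.0% of the variance, KO replicate 1 stood at -17.8 and KO replicates 2 and 3 at 7.2 and 10.1. The WT libraries stood there at 9.3, -3.8 and -5.0. Defining B precursor genes were detected in both lines: the surrogate light chain gene VPREB1 had 114 ± 1.67 FPKM in KO and 76.5 ± 3.53 in WT (SD, n = 3 each), and PAX5, a factor that commits cells to the B lineage, had 111 ± 1.41 in KO and 99.2 ± 3.04 in WT. HOXA9 and MEIS1, homeobox genes that KMT2A fusions keep active, stood at 28.5 ± 2.16 and 10.6 ± 0.274 FPKM in KO, against 26.7 ± 0.713 and 10.2 ± 0.387 in WT.

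IKZF1 RNA itself was present in both lines. The gene (chromosome 7, 50304068 to 50405101) had 20.5, 21.5 and 21.3 FPKM in the KO libraries and 22.1, 22.6 and 22.4 in the WT libraries. Every KO value lay under every WT value, but the log2 difference of -0.08 ± 0.04 (SE) did not pass limma's test (Benjamini-Hochberg adjusted p = 0.12). The call depended on scaling: with limma and Benjamini-Hochberg adjustment it passed under TPM (adjusted p = 0.038), after quantile normalization (adjusted p = 0.037) and with plain totals (adjusted p = 0.026). The gene total counts RNA and not protein, so it does not check the genotype label, and each direction given for KO rests on that label.

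Of the other members of the Ikaros zinc finger family, IKZF3 and IKZF5 were lower in KO and IKZF2 was higher. IKZF3, or Aiolos, which acts later in B cell maturation, had 0.531, 0.513 and 0.60 FPKM in KO and 1.16, 1.37 and 1.01 in WT, so it was near the detection filter in both. Its log2 difference was -0.68 ± 0.13 (limma, Benjamini-Hochberg adjusted p = 0.0025). IKZF3 was below 1 FPKM in every KO library and so passed the filter through WT alone, where a gene can only come out lower. IKZF5, or Pegasus, had 6.29 ± 0.64 FPKM in KO and 9.45 ± 0.385 in WT (-0.56 log2), and IKZF2, or Helios, had 12.5 ± 0.727 in KO and 9.82 ± 0.386 in WT (0.33 log2). IKZF4, or Eos, had 1.45 ± 0.144 in KO and 1.23 ± 0.132 in WT and did not pass (adjusted p = 0.24). Among 14 tested NuRD subunits 3 were higher (21.4%) and 1 was lower (7.14%), with a median log2 difference of 0.01; over all genes tested 15.6% were higher and 13.0% lower, with a median of 0.01. The deacetylase-binding subunit gene RBBP4 was higher by 0.20 ± 0.03 on the log2 scale; the call of RBBP7, its paralogue (-0.10 log2), was lost when any library but KO replicate 2 was left out.

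Differences were counted as calls where limma's test on log2(FPKM + 0.5) gave a Benjamini-Hochberg adjusted p under 0.05. Of the 12343 genes, 3537 were called (28.7%), with 1930 higher in KO (15.6%) and 1607 lower (13.0%). Which side was larger depended on scaling, with 1761 higher and 1889 lower under plain read totals and 1763 and 1794 under TPM. Most calls were small: the median size among them was 0.34 on the log2 scale, beside a median standard error of 0.07. Only 258 genes (2.09%) were called with a difference of at least 2-fold, 113 higher in KO (0.915%) and 145 lower (1.17%). Of these 192 were protein-coding, 84 higher and 108 lower, and 148 of the 258 stayed below 5 FPKM in the group where they were higher. The 95% interval lay within 0.25 log2 units of 0 for 4235 genes (34.3%). In 23.7% of genes all KO values were above all WT values, and in 19.6% all were below.

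**Figure D1:**
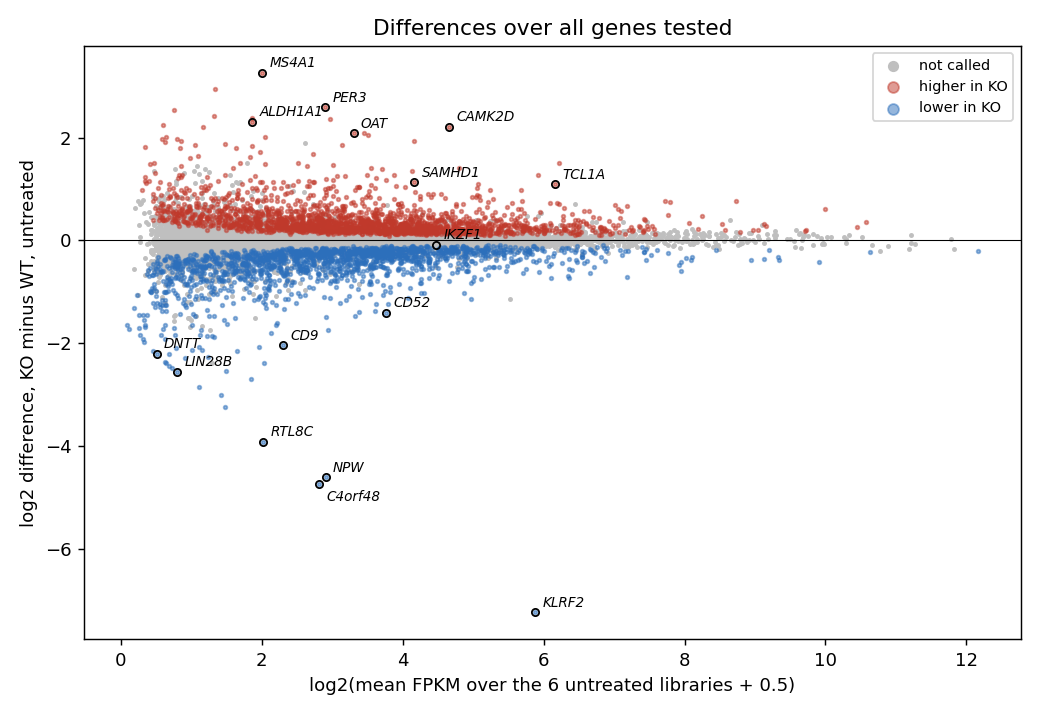
Each point is 1 of the 12343 genes tested; the horizontal axis gives the log2 of its mean FPKM over the 6 untreated libraries plus 0.5, and the vertical axis its log2 difference, KO minus WT. The 1930 genes higher and 1607 lower in KO mostly lie close to 0, while KLRF2 stands at -7.23 and MS4A1 at 3.26.

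The genes that were most reduced in KO were nearly silent there. KLRF2, a C-type lectin-like receptor gene of the natural killer gene complex (chromosome 12, 9881489 to 9895833), had 0.519, 0.178 and 0.173 FPKM in KO, from 6, 2 and 2 reads, and 123, 110.5 and 115 in WT, from 1398, 1276 and 1320 reads. It was thus among the well expressed genes of WT cells and close to 0 in each KO library, with a mean 401 times lower in KO (log2 difference -7.23 ± 0.15, limma, Benjamini-Hochberg adjusted p = 2.1e-10). C4orf48, which encodes a small secreted neuropeptide-like protein (chromosome 4, 2041993 to 2043970), had no read in any KO library and 10.02, 15.1 and 14.2 FPKM in WT. Against a floor of 3 reads over the KO group it was at least 111-fold lower. RTL8C, a gene derived from a retrotransposon (chromosome X, 135032366 to 135033546), was likewise at 0 in all KO libraries and at 6.0, 7.07 and 8.26 FPKM in WT, at least 132-fold lower by the same floor. NPW, the gene of neuropeptide W (chromosome 16, 2009926 to 2020755), had 0.0542, 0.167 and 0.0542 FPKM in KO and 13.8, 13.1 and 14.8 in WT. These 4 genes passed with limma Benjamini-Hochberg adjusted p from 2.1e-10 to 9e-09. Each was below 1 FPKM in every KO library, so each was kept through WT alone and could only come out lower.

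Several lymphoid surface and signalling genes followed among the decreases. CD9, a tetraspanin found on early B cells, had 1.34, 1.39 and 1.58 FPKM in KO and 7.22, 6.81 and 8.3 in WT (log2 difference -2.04 ± 0.13). CD52, a small lipid-anchored glycoprotein of lymphocytes and the target of alemtuzumab, had 6.02, 8.27 and 6.63 in KO and 20.5, 17.5 and 19.7 in WT (-1.41 ± 0.10). The groups were clear of each other for both genes. LSP1, an actin-binding protein of leukocytes, stood at 1.79 ± 0.192 FPKM in KO and 6.48 ± 0.502 in WT, and IRAK2, a kinase of Toll-like and interleukin 1 receptor signalling, at 3.46 ± 0.217 in KO and 10.6 ± 0.774 in WT. The endolysosomal channel gene MCOLN2 had 0.463 ± 0.14 in KO and 5.7 ± 0.595 in WT, and BEX3, an X-linked gene named for its expression in brain, 0.863 ± 0.54 in KO and 6.32 ± 0.727 in WT. MCOLN2 was kept through WT alone as well. The 15 most reduced protein-coding genes were ranked among those of at least 5 FPKM in WT with no overlap between groups. The remaining 5 of them were CIDEB, a lipid droplet protein (-1.81), the kinase PKN3 (-1.74), the small GTPase RAB15 (-1.48), the small heat shock protein HSPB7 (-1.40) and FAM69B (-1.38, log2 differences). Of these 15 genes CIDEB, PKN3, CD52 and FAM69B overlap a tested gene on the opposite strand. The sources used here do not give the strand setting of the counting, so reads of such partners cannot be told apart.

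The largest increase in KO was in MS4A1, which encodes CD20, a surface protein of maturing B cells and the target of rituximab (chromosome 11, 60455752 to 60470760). It had 6.56, 6.76 and 6.95 FPKM in KO and 0.185, 0.247 and 0.354 in WT, so it was close to silent in WT and moderate in KO. Its mean was 25.8 times higher in KO (log2 difference 3.26 ± 0.10, limma, Benjamini-Hochberg adjusted p = 2e-09). MS4A1 was below 1 FPKM in every WT library and was kept through KO alone, where a gene can only come out higher. FCRLA, an intracellular Fc receptor-like protein of B cells, had 9.0, 10.2 and 9.5 FPKM in KO and 2.64, 2.43 and 2.82 in WT (1.68 ± 0.07). CD70, the ligand of the lymphocyte receptor CD27, had 7.98 ± 0.647 in KO and 2.47 ± 0.15 in WT. TCL1A, an activator of AKT kinase that is highly expressed in early B cells, more than doubled, with 96.6, 96.9 and 98.5 FPKM in KO and 44.8, 44.6 and 46.2 in WT (1.10 ± 0.05).

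Enzymes and regulators made up much of the rest. PER3, a circadian clock gene (chromosome 1, 7784320 to 7845177), had 12.2, 12 and 12.8 FPKM in KO and 1.74, 1.88 and 1.3 in WT. CAMK2D, a calcium- and calmodulin-dependent kinase (chromosome 4, 113451032 to 113761927), had 38.1, 44.1 and 41.3 in KO and 8.47, 8.32 and 8.69 in WT, one of the larger increases at a substantial level (log2 difference 2.21 ± 0.05, limma, Benjamini-Hochberg adjusted p = 2.2e-10). ALDH1A1, which makes retinoic acid from retinaldehyde, had 5.55 ± 0.746 FPKM in KO and 0.724 ± 0.206 in WT, and OAT, mitochondrial ornithine aminotransferase, 15.5 ± 0.524 in KO and 3.26 ± 0.114 in WT. ALDH1A1 was kept through KO alone, as MS4A1 was. The glycosyltransferase gene UGT3A2 was the most abundant of the 15 most increased, ranked by the same rule with at least 5 FPKM in KO. It had 107, 112 and 108 FPKM in KO and 38.5, 38.2 and 38.1 in WT. Others were the membrane repair gene TRIM72 (2.01), TOX, a nuclear factor of T cell development (1.83), the homeodomain-only gene HOPX (1.71), the serotonin receptor gene HTR1F (1.46), the RHOA inhibitor RIPOR2 (1.42), the focal adhesion protein TES (1.41) and the calmodulin-binding NRGN (1.38, log2 differences). TOX, RIPOR2 and NRGN overlap a tested gene on the opposite strand.

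**Figure D2:**
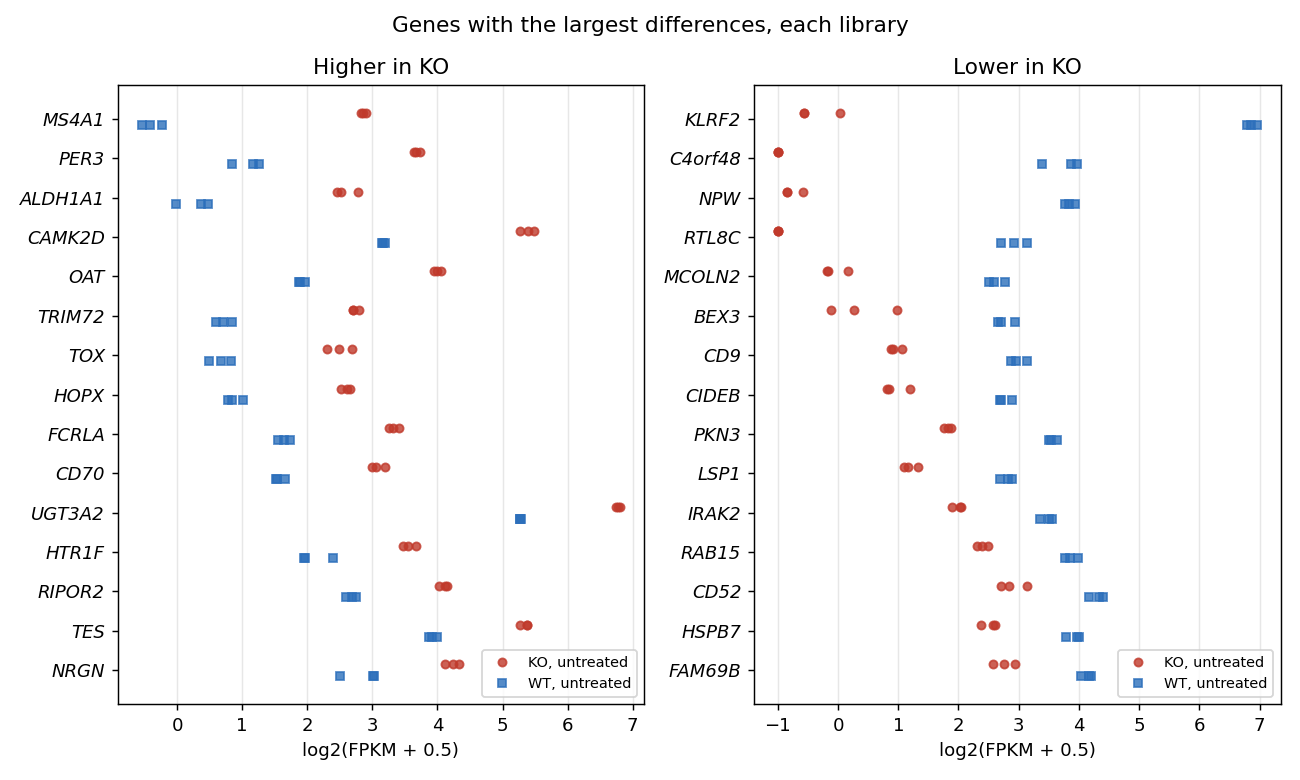
Shown are the 15 most increased (left) and 15 most decreased (right) protein-coding genes among those of at least 5 FPKM in the higher group. Each red circle is a KO library and each blue square a WT library, on the scale log2(FPKM + 0.5), with genes ordered by the size of the difference. The groups do not overlap for any of the 30 genes, which was a condition of their choice; C4orf48 and RTL8C sit at the value of 0 FPKM in all 3 KO libraries.

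Promoter sequences were taken from RefSeq (GRCh38.p14), 250 bases before to 50 bases after a gene's start, for 4 genes that show the range among strongly changed genes. They were searched for TGGGAA, a short sequence that holds the GGGAA core bound by Ikaros, on both strands (TTCCCA on the other). Among protein-coding genes of at least 5 FPKM in the higher group, PER3 is the most increased and KLRF2 the most decreased with a promoter in that table. RIPOR2 and TNFRSF1A, which encodes tumour necrosis factor receptor 1, are the most increased and most decreased genes of at least 2-fold and 5 FPKM whose promoter holds the sequence; capitals mark it.
PER3, plus strand, chr1:7784041-7784340: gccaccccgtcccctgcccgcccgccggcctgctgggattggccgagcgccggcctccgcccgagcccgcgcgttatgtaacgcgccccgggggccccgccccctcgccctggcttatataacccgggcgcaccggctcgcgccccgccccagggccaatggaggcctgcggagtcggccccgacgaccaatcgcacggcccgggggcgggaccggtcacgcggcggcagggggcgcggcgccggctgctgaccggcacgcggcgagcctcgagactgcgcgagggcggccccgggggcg
RIPOR2, minus strand, chr6:25042119-25042418: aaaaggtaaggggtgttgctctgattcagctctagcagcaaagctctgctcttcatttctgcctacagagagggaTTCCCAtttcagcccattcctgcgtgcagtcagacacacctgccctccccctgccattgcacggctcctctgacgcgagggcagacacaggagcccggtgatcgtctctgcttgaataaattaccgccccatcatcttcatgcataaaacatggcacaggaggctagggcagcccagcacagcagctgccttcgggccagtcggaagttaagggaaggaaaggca
KLRF2, plus strand, chr12:9881239-9881538: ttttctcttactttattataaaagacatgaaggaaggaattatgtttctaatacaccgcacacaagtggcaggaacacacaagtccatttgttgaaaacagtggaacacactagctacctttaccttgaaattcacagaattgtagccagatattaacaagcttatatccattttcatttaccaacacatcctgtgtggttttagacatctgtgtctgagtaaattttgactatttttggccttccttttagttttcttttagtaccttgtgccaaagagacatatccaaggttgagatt
TNFRSF1A, minus strand, chr12:6342027-6342326: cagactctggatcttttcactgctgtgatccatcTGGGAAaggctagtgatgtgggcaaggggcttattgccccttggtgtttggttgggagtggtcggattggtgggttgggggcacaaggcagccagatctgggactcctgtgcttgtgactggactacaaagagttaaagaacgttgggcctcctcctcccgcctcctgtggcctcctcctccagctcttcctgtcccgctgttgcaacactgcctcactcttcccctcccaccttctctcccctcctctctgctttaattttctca

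The sequence starts at base 76 in RIPOR2, as TTCCCA, and at base 35 in TNFRSF1A, as TGGGAA, counted from 1 at the 5′ end of the window. RIPOR2 had 17.1, 16.8 and 15.7 FPKM in KO and 5.94, 5.54 and 6.19 in WT, and TNFRSF1A had 1.91, 2.14 and 1.85 in KO and 5.44, 5.15 and 5.3 in WT (-1.23 ± 0.14 log2). Of the 84 protein-coding genes at least 2-fold higher in KO, 67 had a promoter in the table and 12 of these held the sequence (17.9%). Of the 108 lower genes, 84 had a promoter and 12 held it (14.3%). Over all tested protein-coding genes with a promoter it was in 1818 of 8342 (21.8%). The windows also ranged widely in CpG content, with 49 CpG in PER3, 9 in RIPOR2, 1 in KLRF2 and 4 in TNFRSF1A, and a median of 27 over protein-coding genes. A match is a string in this window and does not show that Ikaros binds there.

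Chromosomes 8 and 13 stood apart from the others in KO. On chromosome 13, 143 of 206 tested genes were lower in KO (69.4%) and 7 were higher, and the median log2 difference was -0.49, a ratio of 0.71. On chromosome 8, 250 of 426 were lower (58.7%) and 17 higher, with a median of -0.28, a ratio of 0.824. Each KO library showed both shifts relative to the WT mean, at -0.52, -0.46 and -0.47 on chromosome 13 and -0.31, -0.25 and -0.27 on chromosome 8. The medians of the other 21 nuclear chromosomes lay between 0.00 (chromosome 14) and 0.06 (chromosome 22), and the share of lower calls there between 6.93% and 12.7%. In windows of 10 Mb with at least 15 tested genes the median was below 0 all along both chromosomes, from -0.36 to -0.19 in 13 windows of chromosome 8 and from -0.63 to -0.28 in 7 windows of chromosome 13.

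These chromosomes held 5.12% of tested genes and 393 of the 1607 lower calls (24.5%). When the fit and the adjustment were repeated without them, 1874 genes were higher and 1188 lower. Abundant decreases lay there in particular: all 5 called genes with the highest mean FPKM and at least a 1.5-fold decrease map to chromosome 8 or 13. TPT1, which encodes translationally controlled tumour protein, on chromosome 13 had 188, 201 and 199 FPKM in KO and 304, 289.6 and 299.9 in WT, and the lysosomal membrane gene LAPTM4B on chromosome 8 had 104, 112 and 114 in KO and 186, 174 and 182 in WT. The others were EIF3E, EIF4EBP1 and TFDP1, with log2 differences of -0.63, -0.73 and -0.68. Not every gene there was lower: FLT3, the receptor kinase on chromosome 13 that is abundant in KMT2A-rearranged leukaemia, had 466 ± 11.7 FPKM in KO and 418 ± 9.65 in WT (0.16 log2, adjusted p = 0.0059 with limma and Benjamini-Hochberg, 0.093 after quantile normalization). MYC on chromosome 8 had 163 ± 3.68 in KO and 149.7 ± 6.48 in WT and did not pass (adjusted p = 0.075, 0.045 with limma-voom). No DNA data were used here, and the part of chromosome copy number in these values was not tested. A gene's chromosome is given below where it is one of these.

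**Figure D3:**
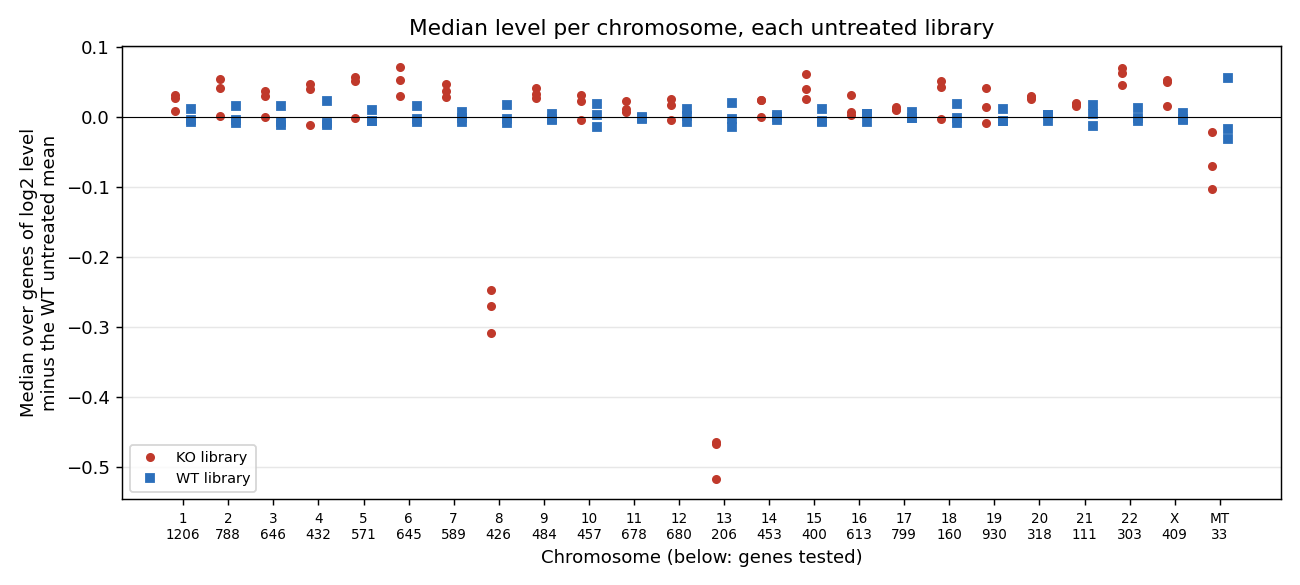
For each chromosome, the median over its tested genes (numbers under the axis) of the log2 level minus the WT untreated mean is shown for each KO library (red circles, left) and each WT library (blue squares, right). KO libraries lie between -0.52 and -0.46 on chromosome 13 and between -0.31 and -0.25 on chromosome 8, and near 0 on the other nuclear chromosomes.

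Genes of the pre-B receptor and B cell signalling were more often higher than lower in KO. Of 31 tested members of this list 16 were higher (51.6%) and 7 lower (22.6%), with a median of 0.19, beside 15.6% higher, 13.0% lower and a median of 0.01 over all genes tested. CD22, an inhibitory coreceptor, had 50.03, 49.8 and 46.7 FPKM in KO and 26.7, 27.5 and 28.8 in WT (0.81 ± 0.04 log2). The receptor signalling chain gene CD79A had 166, 155 and 158 in KO and 96.1, 101 and 99.6 in WT, and IGLL1, the surrogate light chain partner of VPREB1, had 264, 289 and 282 in KO and 165, 161 and 171 in WT. All KO values lay above all WT values in these 3 genes. VPREB1 was higher too (0.57), as were MS4A1 and FCRLA from above. CD79B, the partner chain of CD79A, had a log2 difference of 0.19 and did not pass (adjusted p = 0.24 with limma and Benjamini-Hochberg; it passed at 0.048 without KO replicate 2).

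Among genes that were lower, DNTT, the terminal transferase that adds bases at immunoglobulin gene joints, had no read in any KO library and 2.52, 1.38 and 1.65 FPKM in WT, at least 57.1-fold lower against a floor of 3 reads over the KO group. RAG2, a subunit of the recombinase that overlaps C11orf74 on the opposite strand, had 0.181, 0.167 and 0.235 FPKM in KO and 1.43, 1.37 and 1.4 in WT (-1.46 ± 0.17 log2, limma, Benjamini-Hochberg adjusted p = 5.7e-05). Both were low in WT as well. FOXO1 on chromosome 13, a transcription factor that activates RAG genes in mouse B cells, had 0.254, 0.469 and 0.589 in KO and 1.52, 1.64 and 1.54 in WT (-1.15 log2), a larger reduction than the median of its chromosome. DNTT, RAG2 and FOXO1 were each below 1 FPKM in every KO library and so passed the filter through WT alone, where a gene can only come out lower; RAG2 and FOXO1 were chosen after their values were seen. In bulk RNA, fewer cells that express a gene and less RNA per cell cannot be told apart.

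Among 25 tested B lineage transcription factors 11 were higher in KO (44%) and 5 lower (20%), with a median of 0.12, beside 15.6% and 13.0% over all genes. LEF1, a nuclear effector of Wnt signalling that is expressed in pro-B cells, had the smallest adjusted p of this list, with 162, 167 and 162 FPKM in KO and 110.2, 107 and 113 in WT (0.57 ± 0.04 log2). BCL6, a repressor that pre-B and germinal centre cells use, had 5.67, 5.78 and 5.07 in KO and 2.66, 2.92 and 2.91 in WT (0.85 log2). SOX4 had 32.5 ± 1.59 in KO and 24.4 ± 0.288 in WT, and XBP1, the factor of plasma cells and of the unfolded protein response, was lower, at 64.3 ± 0.589 in KO and 87.6 ± 2.8 in WT. The founding factors of the lineage moved less: EBF1 had 45.9 ± 2.74 FPKM in KO and 37.5 ± 0.448 in WT (0.29 log2), and PAX5 had 111 ± 1.41 in KO and 99.2 ± 3.04 in WT (0.17 log2, limma Benjamini-Hochberg adjusted p = 0.0039, and 0.104 after quantile normalization). LEF1 has an antisense gene, LEF1-AS1, on its other strand.

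Antigen presentation genes of MHC class II were higher in 8 of 14 cases (57.1%) and lower in 1 (7.14%), with a median of 0.23, beside 15.6% and 13.0% over all genes. HLA-DRA, the alpha chain of HLA-DR, had 243, 260.1 and 259 FPKM in KO and 187, 178 and 176 in WT (0.49 ± 0.05 log2, limma, Benjamini-Hochberg adjusted p = 1.4e-05). HLA-DMA, which helps load peptide, had 9.15 ± 0.467 in KO and 6.15 ± 0.0872 in WT, and CD74, the invariant chain that escorts these proteins, 411 ± 21.3 in KO and 327 ± 3.66 in WT. CIITA, the coactivator that switches these genes on, was at 8.03 ± 0.389 in KO and 6.71 ± 0.132 in WT (0.24 log2). RFXAP, a subunit of the complex that binds their promoters, was the one lower member (-0.44) and lies on chromosome 13. HLA-DQB1 (0.35) is one of a set of similar and polymorphic paralogues, among which reads can be assigned wrongly.

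Most markers of other lineages were too low to be tested, though some were well expressed. Of 30 myeloid genes 23 were not tested, with 8 at 0 in all 6 libraries and none of the untested above 1.76 FPKM. Of the 7 tested, 5 were lower in KO (71.4%) and 1 was higher (14.3%), with a median of -0.56; over all genes 13.0% were lower and 15.6% higher. The summed level of the myeloid list was 75.1 to 81.2 FPKM in KO and 102 to 109 in WT, most of it from CEBPA, a myeloid master regulator, with 43.6, 41.9 and 42.9 FPKM in KO and 62.8, 65 and 62.7 in WT (-0.56 log2). IL3RA, the interleukin 3 receptor alpha chain, had 1.98 ± 0.386 in KO and 4.8 ± 0.59 in WT, the protease inhibitor gene CST3 0.523 ± 0.0456 in KO and 1.55 ± 0.0345 in WT, and CSF2RB, the beta chain of that receptor, was higher, at 3.28 ± 0.531 in KO and 1.5 ± 0.233 in WT. CST3 was below 1 FPKM in every KO library, so it was kept through WT alone and could only come out lower. The median of the list was -0.14 with no filter and -0.34 with the filter at 5 FPKM.

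Of 32 genes of T and natural killer cells 25 were not tested, and 14 of those were at 0 in all 6 libraries, with no untested member above 0.379 FPKM. Of the 7 tested, 4 were higher (57.1%) and 2 lower (28.6%), beside 15.6% and 13.0% over all genes. Their median was 0.61, but 0.42 without chromosomes 8 and 13 and -0.01 with no filter on low genes. The summed level of the list was 103 to 108 FPKM in KO and 185 to 194 in WT, and the order turned on 1 gene: without KLRF2 the sum was 103 to 108 FPKM in KO and 71.3 to 74.8 in WT. LCK, a SRC family kinase of T cells that B cell leukaemias can also express, had 39.2, 41.1 and 40.8 FPKM in KO and 26.4, 25.9 and 26.8 in WT, and TCF7, which encodes the LEF1 relative TCF1, had 10.5, 10.6 and 10.9 in KO and 6.49, 6.61 and 6.33 in WT. Stem and progenitor genes were lower in 4 of 7 tested cases (57.1%) and higher in 1 (14.3%), with a median of -0.20 and a summed level of 151 to 156 FPKM in KO and 162 to 166 in WT. LIN28B, a fetal RNA-binding protein that blocks let-7 maturation, had 0, 0 and 0.0211 FPKM in KO, from 2 reads in a single library, and 2.49, 2.57 and 2.39 in WT. LIN28B was thus kept through WT alone and could only come out lower. LMO2, a bridging protein of haematopoietic transcription complexes, had 9.95, 11.8 and 12.4 in KO and 22.6, 21.3 and 21.9 in WT (-0.92 ± 0.07 log2). PROM1, which encodes CD133, was slightly higher (0.15 log2), a call lost after quantile normalization (adjusted p = 0.116). Of 18 erythroid and megakaryocyte genes 16 were not tested and the sum was 43.1 to 46.3 FPKM in KO and at least 48.3 in WT; the platelet glycoprotein gene GP9 was higher (1.03) and the transferrin receptor gene TFRC lower (-0.26). The part of other cell types in the results was not tested.

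Genes linked to the KMT2A fusion were mixed, with 10 of 27 higher in KO (37.0%) and 6 lower (22.2%) and a median of 0.10, beside 15.6% and 13.0% over all genes. RUNX2, a Runt family factor, had 14, 13.2 and 13.2 FPKM in KO and 6.29, 5.98 and 6.54 in WT (1.04 ± 0.05 log2), but it overlaps SUPT3H on the opposite strand. CSPG4, the surface proteoglycan NG2 that marks this leukaemia, had 24.1 ± 0.465 in KO and 17.5 ± 0.411 in WT. ZEB2 was lower, at 3.34 ± 0.131 in KO and 5.44 ± 0.0762 in WT, and CCNA1, the germline cyclin A, was higher (0.89) and lies on chromosome 13. MEIS1 and HOXA9 did not pass, with log2 differences of 0.06 and 0.09 (adjusted p = 0.38 and 0.36, limma, Benjamini-Hochberg).

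Among 25 tested integrin and adhesion genes 12 were higher in KO (48%) and 3 lower (12%), with a median of 0.10, beside 15.6% and 13.0% over all genes. Of 41 focal adhesion and actin genes 20 were higher (48.8%) and 9 lower (22%), so both shares were above those over all genes (median 0.09). ITGB7, an integrin beta chain that guides lymphocytes to the gut, had 47.3, 43.7 and 44.8 FPKM in KO and 20.4, 22.3 and 20.1 in WT (1.09 ± 0.05 log2, limma, Benjamini-Hochberg adjusted p = 3.2e-08). CORO1A, an actin regulator of leukocytes, had 97.1, 94.3 and 93.7 in KO and 61.4, 60.9 and 60.8 in WT, and vinculin, encoded by VCL, 15.7 ± 0.184 in KO and 11.2 ± 0.437 in WT. The 2 partners of the annexin A2 complex went in opposite directions: S100A10 had 182, 179.7 and 174 FPKM in KO and 107, 112 and 118 in WT, while ANXA2 had 39.5, 40.4 and 41.3 in KO and 63.7, 61.4 and 63.8 in WT. PECAM1 (-0.69) and EMP1 (-0.80) were lower, and CTNND1, which encodes p120 catenin, was higher (0.56). In the Notch list 4 of 11 tested genes were higher (36.4%) and 2 lower (18.2%): the sheddase ADAM10 had 46.7 ± 1.69 FPKM in KO and 31.8 ± 0.612 in WT, the feedback gene NRARP 0.362 ± 0.114 in KO and 1.74 ± 0.287 in WT, and DTX4 2.63 ± 0.426 in KO and 1.31 ± 0.13 in WT. HES6 was higher by a smaller margin (0.27). NRARP was below 1 FPKM in every KO library, so it was kept through WT alone and could only come out lower.

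The genes of both interleukin 7 receptor chains, IL7R and IL2RG, were higher. This pathway drives precursor B cell growth. IL7R had 58.4, 60.9 and 60.4 FPKM in KO and 41.3, 38.6 and 37.5 in WT (0.61 ± 0.04 log2, limma, Benjamini-Hochberg adjusted p = 6.6e-07). Its partner chain IL2RG had 10.1, 8.21 and 9.97 in KO and 4.95, 4.4 and 4.62 in WT, and the receptor kinase JAK1 had 36.9 ± 1.19 in KO and 29.1 ± 0.512 in WT. No KO value of these genes overlapped a WT value. Over the list of this pathway and of JAK-STAT signalling 9 of 26 genes were higher (34.6%) and 3 lower (11.5%), with a median of 0.09, beside 15.6% and 13.0% over all genes. The cytokine receptor gene IL3RA from above was among the lower members (-1.10 log2). It was the only call of at least 2-fold in this list.

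In the list of RAS, MAPK and PI3K feedback 14 of 30 tested genes were higher (46.7%) and 4 lower (13.3%), with a median of 0.20, beside 15.6% and 13.0% over all genes. ETV5, an ETS factor induced by ERK, had 9.43, 9.83 and 9.04 FPKM in KO and 4.58, 4.4 and 4.33 in WT (1.01 ± 0.04 log2). RASGRP1, which activates RAS, had 11.3 ± 0.555 in KO and 6.04 ± 0.314 in WT. SPRY2, an inhibitor of the pathway, was lower, at 23.1 ± 0.616 in KO and 35.3 ± 1.89 in WT, and lies on chromosome 13; FOSL2 was lower too (-0.36).

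Glucocorticoid response genes were higher in 8 of 17 cases (47.1%) and lower in 3 (17.6%), with a median of 0.19, beside 15.6% and 13.0% over all genes. BTG2, an antiproliferative gene that p53 and glucocorticoids induce, had 18.3, 17.8 and 18.7 FPKM in KO and 8.01, 7.67 and 7.8 in WT (1.17 ± 0.06 log2), and the kinase SGK1 had 3.95, 3.96 and 4.07 in KO and 1.69, 1.59 and 1.51 in WT. KLF13 was higher (0.34) and ZFP36L2 lower (-0.30). Interferon-stimulated genes were higher in 13 of 26 cases (50%) and lower in 2 (7.69%), with a median of 0.19. Among them were IRF1, a transcription factor of the response, at 14.2 ± 0.119 FPKM in KO and 9.77 ± 0.177 in WT and the membrane protein IFITM1 at 4.77 ± 0.18 in KO and 2.56 ± 0.285 in WT. OAS1, a sensor of double-stranded RNA, was lower, at 0.55, 0.762 and 0.524 in KO and 2.04, 2.28 and 2.17 in WT. OAS1 was thus kept through WT alone and could only come out lower. Of 16 NF-kB genes 4 were higher (25%) and 1 lower (6.25%), with a median of 0.11. TNF had 9.6 ± 0.898 FPKM in KO and 6.06 ± 0.626 in WT, and TNFAIP3 and ICAM1 were higher by 0.34 and 0.37; NFKBIE was lower (-0.24), a call lost without WT replicate 2 or 3 or KO replicate 3 (adjusted p = 0.058, 0.082 and 0.067 with limma).

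Of 39 mitotic genes 10 were higher in KO (25.6%) and 2 lower (5.13%), with a median of 0.09, beside 15.6% and 13.0% over all genes. No called difference in this list was above 0.34 on the log2 scale: CENPF, a kinetochore protein, had 54.3 ± 1.84 FPKM in KO and 43.9 ± 0.996 in WT, PTTG1, or securin, 108 ± 4.51 in KO and 85.3 ± 2.82 in WT, and NUSAP1 17.4 ± 0.466 in KO and 13.8 ± 0.68 in WT. Of 42 DNA replication genes 5 were higher (11.9%) and 6 lower (14.3%), close to the shares over all genes (median -0.06). RFC3 on chromosome 13, a subunit of the clamp loader, had 34.5 ± 1.43 in KO and 52.6 ± 2.08 in WT, and MCM4 on chromosome 8, a subunit of the replicative helicase, 98.3, 102 and 100.3 in KO and 138, 126 and 132 in WT. RPA2, a single-strand DNA-binding protein, was higher (0.51), as was ORC2 (0.30). Among 23 G1 cyclins and CDK inhibitors 7 were higher (30.4%) and 6 lower (26.1%), with a median of -0.02; all 3 members on chromosomes 8 and 13 were lower. CDK6, a kinase that drives entry into the cell cycle, had 124, 129 and 126 FPKM in KO and 95.5, 94.7 and 88.8 in WT, with an abundant antisense transcript, AC002454.1, that overlaps it and was higher as well (0.77). CCND3, a cyclin that activates CDK6, was lower, at 41.4 ± 0.447 in KO and 54.6 ± 0.667 in WT, RB1 on chromosome 13, the retinoblastoma gene, had 31.4 ± 2.1 in KO and 45.4 ± 2.0 in WT, and CCNE2 on chromosome 8 had 7.84 ± 0.476 in KO and 12.9 ± 0.325 in WT.

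Of 13 BCL2 family genes 4 were higher in KO (30.8%) and none lower, beside 15.6% and 13.0% over all genes (median 0.07, but -0.02 without WT replicate 1). BCL2 itself had 32.8, 34 and 34.7 FPKM in KO and 28.9, 27.8 and 29.2 in WT (0.24 ± 0.04 log2), BCL2L1, which encodes BCL-xL, had 15.3 ± 1.14 in KO and 11.7 ± 0.669 in WT, and the proapoptotic BCL2L11, or BIM, and BID were higher as well (0.24 and 0.27). Of 22 p53 targets 6 were higher (27.3%) and 3 lower (13.6%), with a median of 0.06. BTG2 from above was the largest increase among them (1.17). The DNA polymerase gene POLH (0.32) and ZMAT3 (0.60) were higher, and TNFRSF10B on chromosome 8, a death receptor, was lower, at 4.16, 3.72 and 4.3 in KO and 7.37, 8.04 and 9.31 in WT.

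Genes that transport or metabolise cytarabine were compared before any drug was given. Of 25 tested, 4 were higher (16%) and 5 lower (20%), with a median of 0.04, near the 15.6% and 13.0% over all genes. SAMHD1, a triphosphohydrolase that cleaves the active triphosphate of cytarabine, showed the largest difference in this list, with 23.3, 24.8 and 24.3 FPKM in KO and 11.5, 10.6 and 10.3 in WT (1.13 ± 0.05 log2, limma, Benjamini-Hochberg adjusted p = 6.7e-08). Its groups were far apart, with a mean 2.24 times higher in KO. SLC29A1, the transporter ENT1 that carries the drug into cells, had 19.2, 17.8 and 19.3 FPKM in KO and 25.1, 25.6 and 25.1 in WT (-0.42 ± 0.04 log2). The related SLC29A2, at a low level, was higher (0.73), and the efflux pump gene ABCC4 on chromosome 13 was lower (-0.57). DCK, the kinase that adds the first phosphate to the drug, had 49, 57.7 and 58.8 FPKM in KO and 55.5, 50.1 and 50.6 in WT; the groups overlapped, with a 95% interval of -0.08 to 0.23 log2 (limma, Benjamini-Hochberg adjusted p = 0.45).

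Of 29 glycolysis genes 2 were higher in KO (6.90%) and 5 lower (17.2%), with a median of -0.06, beside 15.6% and 13.0% over all genes: the lactate exporter gene SLC16A3 had 1.59 ± 0.324 FPKM in KO and 4.07 ± 0.978 in WT, GPI 14.8 ± 0.85 in KO and 20.8 ± 0.457 in WT, and HK1 12.3 ± 0.418 in KO and 15.5 ± 0.607 in WT, while the glucose transporter gene SLC2A3 was higher (0.30). Of 24 cholesterol synthesis genes 3 were higher (12.5%) and 5 lower (20.8%), with a median of 0.01; INSIG1 (0.39) and MSMO1 (0.39) were higher and FDFT1 and SQLE, both on chromosome 8, lower (-0.20 and -0.20). Of 32 ribosome biogenesis genes 1 was higher (3.12%) and 8 lower (25%), with a median of -0.11 and with BOP1 and RRS1 on chromosome 8 at -0.41 and -0.29 and HEATR1 and NOP16 at -0.18 and -0.17. Of 26 genes of the integrated stress response 4 were higher (15.4%) and 8 lower (30.8%), with a median of -0.02, among them VLDLR (-0.64), SLC3A2 (-0.17) and TRIB3 (0.42). Of 26 Polycomb genes 5 were higher (19.2%) and 3 lower (11.5%), with a median of 0.02; JARID2, an accessory subunit of Polycomb repressive complex 2, nearly doubled, with 23.9, 23.9 and 24 FPKM in KO and 12.9, 12.4 and 13.4 in WT (0.86 ± 0.04 log2), and CBX6 had 22.7 ± 1.63 in KO and 15.3 ± 0.823 in WT.

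**Figure D4:**
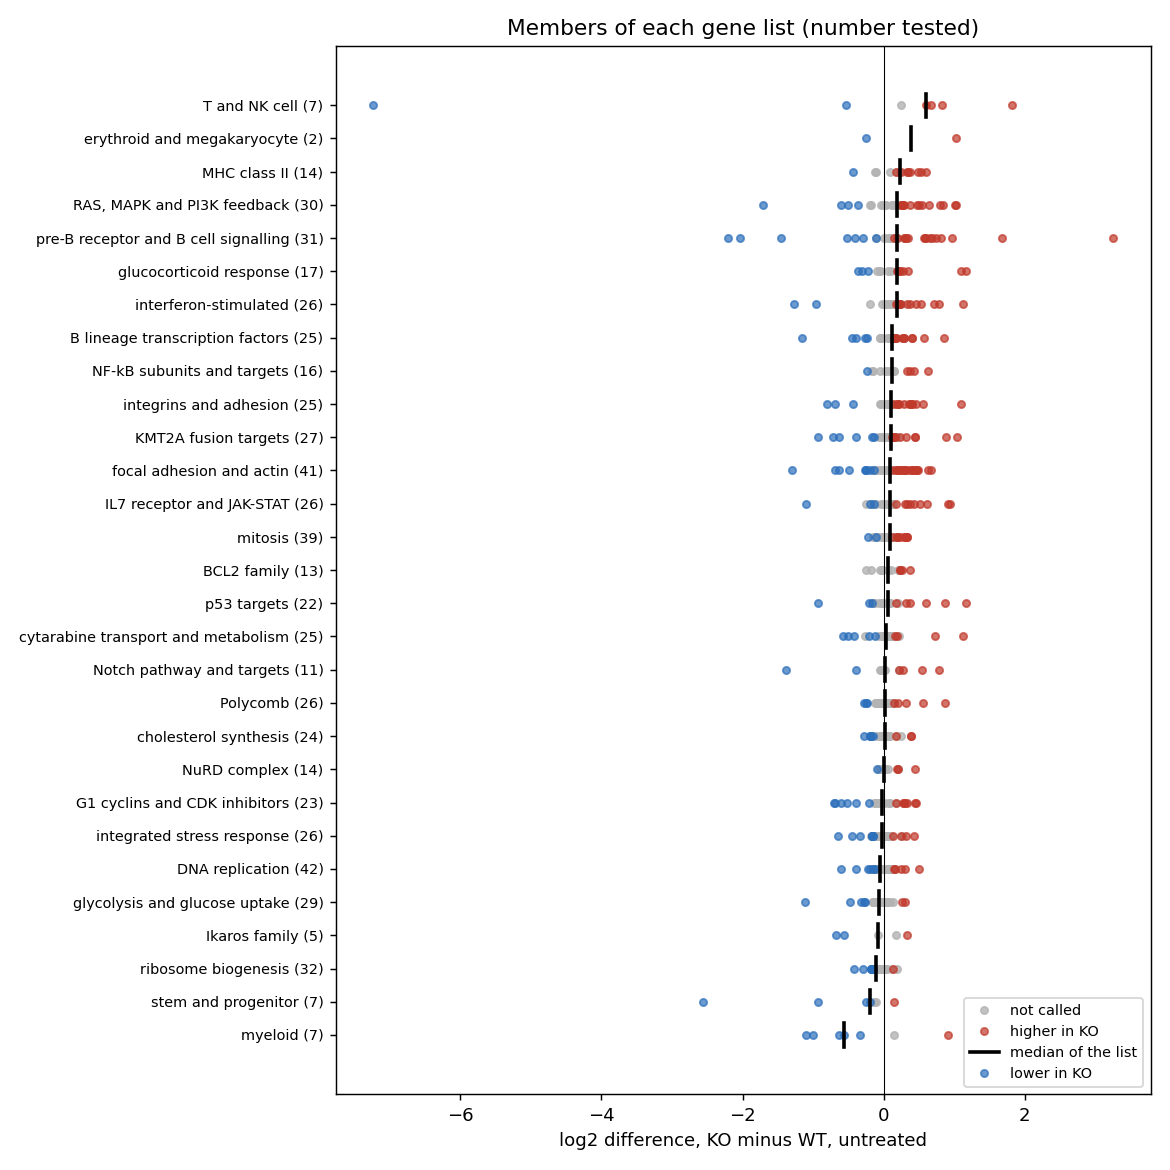
Each point is a tested member of a gene list at its log2 difference, KO minus WT, coloured by its call (red higher in KO, blue lower, grey not called), and the black bar is the list's median; numbers tested are in brackets. Lists are ordered by median, which runs from 0.61 in the T and NK cell list with 7 tested genes (-0.01 with no filter) to -0.56 in the myeloid list with 7.

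Transcripts outside the protein-coding set also differed. LINC01108, a long intergenic RNA, had 17.7, 16.7 and 17.2 FPKM in KO and 3.55, 3.75 and 3.76 in WT (2.08 ± 0.06 log2), and AL096816.1 had 5.44, 5.96 and 5.39 in KO and 0.772, 0.845 and 0.437 in WT. AL096816.1 was thus kept through KO alone and could only come out higher. Unprocessed pseudogenes on chromosome X, AC245047.8, BX510359.3 and BX510359.2, were higher by 2.35, 2.05 and 1.93; pseudogenes share sequence with their parent genes, so their counts are uncertain. The same holds for the thymosin gene TMSB4X and its processed copy TMSB4XP8 (0.77). TMSB4X was the most abundant of the called genes with at least a 1.5-fold increase. It had 1182, 1232 and 1279 FPKM in KO and 817, 798 and 801 in WT. Among decreases, AC018738.1 had 1.01 ± 0.358 in KO and 5.77 ± 1.01 in WT, AP006621.2 1.87 ± 0.558 in KO and 5.46 ± 1.86 in WT and RNA5SP82 3.25 ± 0.858 in KO and 7.4 ± 1.43 in WT. The last 2 overlap another gene on the same strand, and RNA5SP82 lost its call with limma-voom (adjusted p = 0.074). AP006621.2 rested on 6, 8 and 11 reads in KO and 16, 33 and 24 in WT. RNA5SP82 rested on 4, 6 and 4 reads in KO and 9, 10 and 13 in WT. With AraC neither was called, at log2 differences of -0.04 for AP006621.2 and -0.06 for RNA5SP82. MIR4258 and MIR548D1, the latter on chromosome 8, are short genes inside CKS1B and ATAD2 on the same strand. They passed narrowly and lost their calls under several settings, so no change is read from them.

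The same contrast in the other 6 libraries, KO and WT cells given AraC, compares AraC libraries of the same 2 lines; it shares the gene filter and the pooled variance with the untreated libraries. There 3877 genes were called (31.4%), 2011 higher and 1866 lower; under TPM the split was 1302 higher and 2900 lower, and with plain read totals 1530 and 2648. Calls in the same direction numbered 2163, which is 61.2% of the untreated and 55.8% of the AraC calls, and 51 genes were called in opposite directions. Of the 258 calls of at least 2-fold without drug, 219 (84.9%) were called in the same direction with AraC, and of the 192 that were protein-coding 188. KLRF2 differed by -6.33 log2 with AraC and -7.23 without, MS4A1 by 2.82 and 3.26, and CAMK2D by 1.87 and 2.21. The shifts of chromosomes 13 and 8 were present as well, with AraC medians of -0.44 and -0.25. A test of the difference between the 2 contrasts called 359 genes (2.91%), of which 220 were called without drug. That count fell by a large part when most single untreated libraries were left out. It was 156, 189 and 143 without WT untreated replicate 1, 2 or 3, and 166 and 170 without KO untreated replicate 2 or 3. Without KO untreated replicate 1 it was 335.

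**Figure D5:**
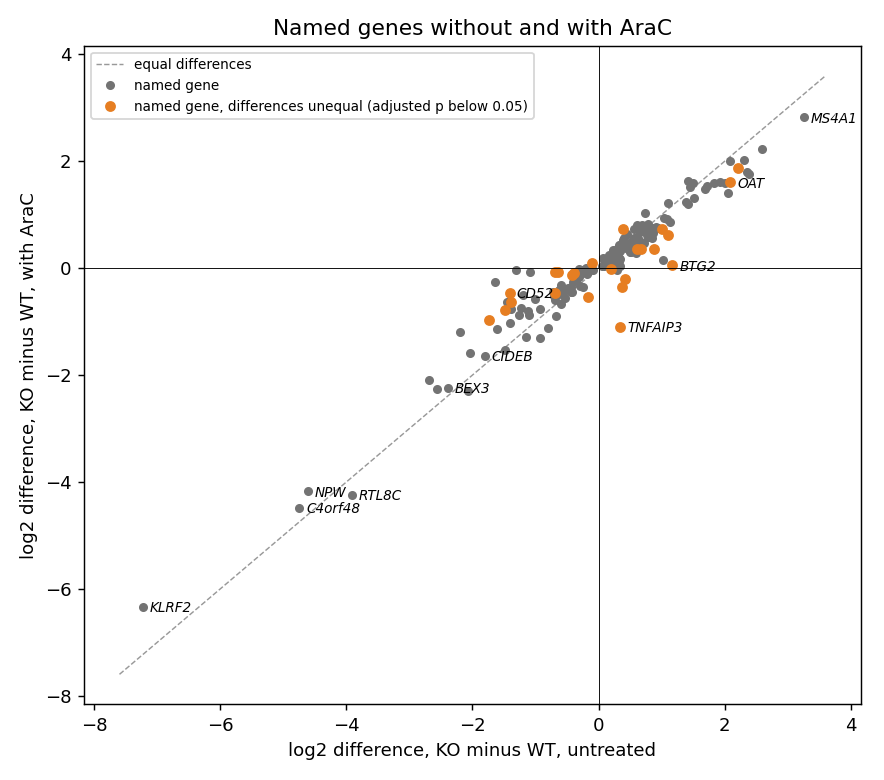
Each point is one of the 173 genes named by rule or by hand, with its log2 difference, KO minus WT, in untreated libraries on the horizontal axis and in AraC libraries on the vertical axis; orange points are genes whose 2 differences were unequal at an adjusted p under 0.05, and the dashed line marks equality. KLRF2 at -7.23 and -6.33 lies above the line, by 0.90 (limma interaction test, Benjamini-Hochberg adjusted p = 0.051). MS4A1 at 3.26 and 2.82 lies below it (-0.44, adjusted p = 0.11 by the same test), and TNFAIP3 at 0.34 and -1.10 lies far below it.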

How the data were processed

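RNA from SEM cells was sequenced and quantified by a service company, per the labels' protocols. The authors deposited 1 table of FPKM per gene for 12 libraries; no per-sample column was left unused. Tools named in the submitters' processing notes are featureCounts 1.5.0-p3, HISAT2 2.0.5 and fastp, with GRCh38 and hg38 as builds; their settings, the library type and the strand setting are not stated there. FPKM multiplied by gene length gave whole reads for 100% of values above 0 (within 0.001), and the deposited FPKM carry the authors' scaling between libraries rather than plain totals.

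Genes at 1 FPKM or more in at least 3 of the 6 untreated libraries were fitted on log2(FPKM + 0.5) with limma 3.58.1 in R 4.3.3, with 4 group means over all 12 libraries, a variance trend and 8 residual degrees of freedom. All p-values are two-sided and were adjusted over 12343 genes by the Benjamini-Hochberg method. The added 0.5 understates differences of low genes. A gene at 0 in a group was bounded with 3 reads over that group, which covers counting error only. The fit was also run on simulated reads. These had independent libraries and the same biological spread for every gene, so nothing about the calls here is concluded from them. An exact permutation test of 3 libraries against 3 cannot go below p = 0.1, so none was used. Replicate numbers were not used to pair the libraries in the main fit.

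The comparison and the 29 gene lists were chosen with earlier results of these data known. Named genes are the 15 protein-coding genes with the largest increase and the 15 with the largest decrease (at least 5 FPKM in the higher group, no overlap between groups), up to 4 members per list with the smallest adjusted p, the Ikaros family, genes silent in 1 group, 5 genes of other biotypes and 5 abundant genes in each direction. DCK, MYC, RAG2, FOXO1, TCL1A, CIITA, CD74, MCM4, RB1 and TNFRSF1A were named after their values were seen, and B precursor and KMT2A markers to check the label. Lists are described by counts and medians, with no test of the list. Promoters of chromosome 8 were not considered for printing. Beside those marked in the results, IKZF5, IKZF1, RBBP7, SOX4, HLA-DMA, CEBPA, TCF7, ITGB7, CORO1A, VCL, JAK1, SLC16A3, CCNE2, RB1, TNFRSF10B, POLH, SLC29A2, IRF1, ICAM1, BOP1, HEATR1, NOP16, IGLL1, TPT1, PAX5, MEIS1, HOXA9, CSPG4, TCL1A, CIITA and KIF20A overlap a tested gene on the opposite strand. Named genes that overlap a tested gene on the same strand include CD22, IFITM1, PROM1, RFC3 and SLC16A3. Coordinates of genes are those of the table. Alternatives were tried for the pseudocount, filter, scaling, variance model, replicate block, limma-voom on the recovered reads and leaving out each untreated library or KO AraC replicate 3.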

Additional observations from a re-analysis of the deposited data

Results flagged for a closer look

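For 24 of the named genes the KO against WT difference with AraC was unequal to that without, by limma's interaction test with Benjamini-Hochberg adjustment over all 12343 genes; values are the log2 difference with AraC minus that without. They were selected among the named genes, and no explanation was tested. Many named genes were chosen for their untreated difference, which the interaction test also uses. That choice favours smaller differences with AraC. The interaction count over all genes also fell when most single untreated libraries were left out, as given above. TNFAIP3, an inhibitor of NF-kB signalling, had the largest, at -1.44: it was higher in KO without drug (0.34) and lower with AraC (-1.10; interaction adjusted p = 0.00024). BTG2 followed at -1.11, with a difference of 1.17 without drug and 0.06 with AraC (adjusted p = 0.00026). ICAM1 stood at -0.71 and was called in opposite directions (0.37 and -0.35), as was RBBP7 at 0.20. Among the most reduced genes, CD52 (0.95), PKN3 (0.77), FAM69B (0.75) and RAB15 (0.69) were less reduced with AraC than without. Among the higher genes, OAT (-0.48), CAMK2D (-0.34), SGK1 (-0.48), CCNA1 (-0.54), ETV5 (-0.27), LCK (-0.25) and TCF7 (-0.32) differed less with AraC, and INSIG1 (0.36) more. CCNE2 (0.62), CCND3 (0.30), VLDLR (0.58), SLC29A1 (0.29) and TFDP1 (0.22) were lower in KO without drug, with a difference closer to 0 under AraC; SLC3A2 (-0.37) was lower in both and more so with AraC. KIF20A (-0.21) and TRIB3 (-0.63) were higher without drug and did not pass with AraC.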

How the results depend on the processing

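The total of 3537 calls moved by less than 1.5 times in every setting run. Its 1930 higher and 1607 lower genes became 1884 and 1535 with the replicate block, 2044 and 1696 with limma-voom, 1790 and 1469 with the 6 untreated libraries alone and 1874 and 1188 without chromosomes 8 and 13, an alternative chosen after seeing the data, as was leaving out KO AraC replicate 3 (2082 and 1757). Leaving out 1 untreated library gave 1546 to 1851 higher and 1297 to 1423 lower. The sign of the surplus depended on scaling, with 1761 higher and 1889 lower under plain read totals. The filter at 5 FPKM tests 7617 genes and gave 1069 lower calls, with 57 higher and 43 lower by at least 2-fold; a pseudocount of 1 gave 72 higher by 2-fold. The interaction count was 576 under TPM, 549 with plain totals, 629 with limma-voom and 143 to 337 with 1 untreated library or KO AraC replicate 3 left out. The chromosome 13 median was -0.54 with a pseudocount of 0.1, -0.45 with 1, -0.18 with no filter, -0.55 under TPM and -0.54 with limma-voom; that of chromosome 8 was -0.13 with no filter. Same-numbered libraries did not deviate together (correlations -0.05, -0.03 and -0.01, with 0 libraries correlated best with their own number). Such values cannot show whether same-numbered libraries were handled together. Of 173 named genes 160 kept their call in every setting that tested them. The filter at 5 FPKM tested only 146 of the 173. The 13 whose call changed in some setting were IKZF1, MBD2, RBBP7, PROM1, NFKBIE, NOP16, CD79B, PAX5, FLT3, MYC, MIR4258, MIR548D1 and RNA5SP82, and none changed sign past the threshold. The cause of these changes was not tested. List medians near 0 (NuRD, cholesterol synthesis, G1, Notch, p53, BCL2 family and stress response) changed sign in some settings, as did the T and NK cell median (-0.01) and that of the erythroid list with no filter. Low genes also limit the comparison: few reads separate them from 0.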
